A study of Mus musculus with 6 samples.

Results

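The urea transporter genes Slc14a1 and Slc14a2 lie next to each other on mouse chromosome 18, and both were measured in top lip tissue of Gtf2ird1 knockout and wild type mice. They are 2 of the 26814 gene symbols with read counts, and both are among the 15009 genes that passed the filter on low counts (a level of 1 CPM or more, where CPM is the count scaled to a common library total, in 3 libraries or more). The pair was chosen by the readout itself, because Slc14a2 has the strongest rise in the libraries labelled KO, with Slc14a1 taken as its neighbour. The differences of the pair between genotypes are therefore given as a description: no p-value of the pair is given, and its place in the order of all genes serves only to show what the choice rested on.

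Lip tissue came from 3 WT and 3 KO mice, all adult females of 2 to 6 months, with 1 mRNA library per mouse. WT mice were wild type for Gtf2ird1, KO mice carried Gtf2ird1tm1Hrd, and all 6 shared the C57BL/6J background and received no treatment that the labels name. Top lip is bulk tissue, with epidermis, dermis, hair follicles, muscle, vessels and nerve, so that a change in the number of cells of a type and a change in RNA per cell cannot be told apart. Which cell of the lip held the transporter RNA was not measured.

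Urea transporters are membrane channels that let urea pass down its concentration gradient. Slc14a1 encodes UT-B, best known from red blood cells and from the descending vasa recta vessels of the kidney, while Slc14a2 encodes the UT-A proteins, a family of isoforms best known from the collecting duct and thin descending limb of the kidney, where vasopressin acts on them. In skin, urea belongs to the natural moisturizing substances of the cornified layer, and aquaglyceroporins, the aquaporins that pass glycerol, can also carry urea.

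In the GENCODE annotation of GRCm38, the build to which the reads were mapped, both genes lie on the minus strand of chromosome 18. Slc14a1 (ENSMUSG00000059336.14) spans chr18:78100091-78142119, and its 3 annotated transcripts together cover 3995 exon bases in 11 blocks. Slc14a2 (ENSMUSG00000024552.16) spans chr18:78146148-78596942, and its 6 annotated transcripts cover 5171 exon bases in 24 blocks. The end of Slc14a2 and the start of Slc14a1 are 4028 bases apart, and 0 annotated genes lie between them. Slc14a2 is a long gene with small exons, since its 450795 bases hold transcripts that start far apart. The longest transcript, with 22 exons and 4033 bases, runs the length of the gene, whereas another, with 19 exons and 2793 bases, starts at 78209094 and a further transcript, with 11 exons and 2863 bases, starts at 78179134. The counts are per gene, so which of these transcripts was present in lip was not measured. Slc14a1 overlaps no annotated gene. Gm6133, which lies inside Slc14a2 on the opposite strand and shares 0 exon bases with it, had 0, 3 and 1 counts in WT1, WT2 and WT3 and 4, 0 and 1 counts in KO1, KO2 and KO3. The other annotated genes inside Slc14a2, AC145554.1 and Gm26430, were not analysed here.

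The libraries held 20164081 to 29491767 counts on genes, and the upper limit for a gene without reads, taken as 3 counts, corresponded to 0.0986 to 0.154 CPM across libraries (counting error only). The targeted gene was higher under the KO label in the gene-level counts. Gtf2ird1, at 78.2, 70.2 and 70.7 CPM in the WT libraries, was at 166, 162 and 144 CPM in the KO libraries (log2 difference 1.11, SE 0.13, edgeR's quasi-likelihood test, Benjamini-Hochberg adjusted p = 0.0018, n = 3 per genotype). Gtf2ird1 also overlaps Gm42882, Gm26340 and n-R5s178 on the opposite strand. The paper cites earlier work in which GTF2IRD1 controlled its own gene by binding the promoter, and whether it did so here was not tested. A count per gene does not separate the part of Gtf2ird1 that the allele alters from the rest, so the labels were not checked by it. According to the methods, the authors genotyped the mice again on tail biopsies. Each direction given here is that of the KO label against the WT label. The calls depended on the library KO3: over all genes 657 were higher and 314 lower in KO, against 2496 and 2395 without KO3.

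Slc14a2 was close to absent from WT lip and well measured in every KO library. Its counts were 3 in WT1, 3 in WT2 and 5 in WT3, and 928 in KO1, 1685 in KO2 and 1170 in KO3. Scaled to library size, the WT levels were 0.109, 0.128 and 0.225 CPM (mean 0.154 ± 0.0623, SD, n = 3), and the KO levels were 47.5, 55.4 and 53.5 CPM (mean 52.1 ± 4.13, SD, n = 3). WT1 and WT2 had 3 counts each, the number taken as the upper limit for a gene without reads. No background rate was estimated, so whether these few WT reads exceed background was not tested. The groups lay far apart. The pooled WT counts, 11 in all, against 3783 in the KO libraries gave a 351-fold higher level in KO, with an exact 95% interval of 196 to 704 that covers counting error only. Fitted across all genes, the log2 difference was 8.39, a value that depends on the prior count because the WT counts are so low. With a prior count of 2 it was 7.80. No SE is given for it, since an SE derived from the test statistic would be narrower than the counting error of 11 WT counts.

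Slc14a1 differed from its neighbour in that it was already expressed in WT lip, and its difference between genotypes was far smaller. Its counts were 137 in WT1, 87 in WT2 and 114 in WT3, and 316 in KO1, 491 in KO2 and 523 in KO3. These corresponded to 4.97, 3.70 and 5.13 CPM in WT (mean 4.60 ± 0.784, SD, n = 3) and to 16.2, 16.1 and 23.9 CPM in KO (mean 18.7 ± 4.48, SD, n = 3). KO3 was the highest library and KO1 and KO2 were nearly equal, and here too the KO values lay above all WT values. The pooled counts, 338 against 1330, gave a 4.02-fold higher level in KO (exact 95% interval 3.56 to 4.54, counting error only), and the fitted log2 difference was 2.02 (SE 0.23). Without KO3 the fitted difference was 1.81 to 1.82, depending on the filter, and without KO1 or KO2 it was 2.16 to 2.18. Of all tested genes, 31.5% had 3 KO values on one side of the 3 WT values, and since the pair was selected on this contrast nothing is read from its place in that share.

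**Figure D1:**
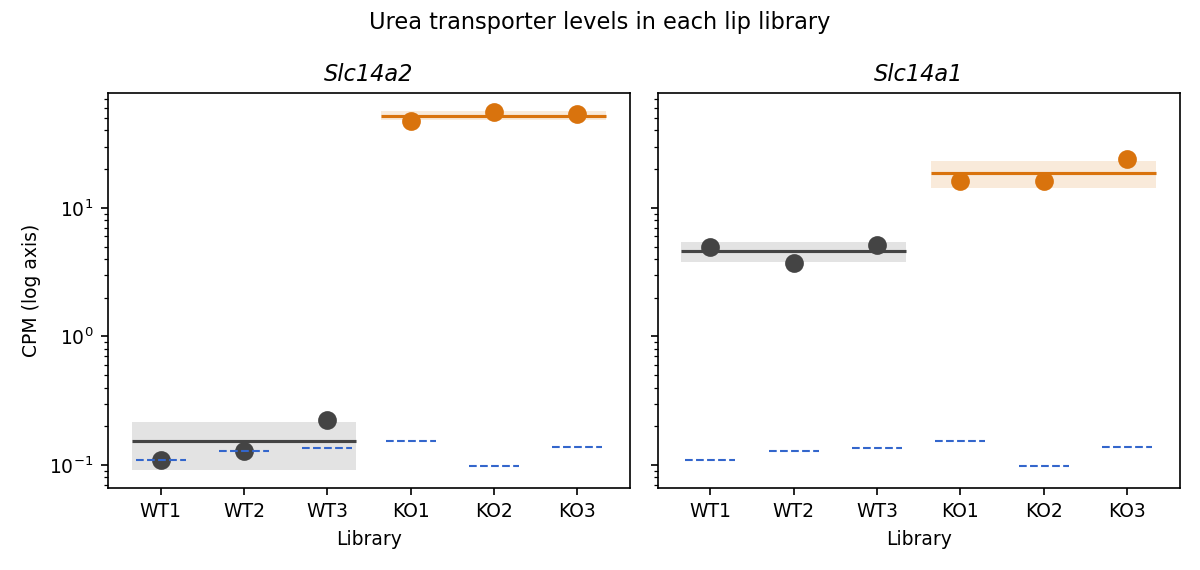
Each point is the CPM (log axis) of Slc14a2, left, or Slc14a1, right, in 1 library, with WT in grey and KO in orange; lines are group means, shaded bands are ± 1 SD (n = 3) and blue dashes mark 3 counts in that library. Slc14a2 lies at or just above the dashes in WT and between 47.5 and 55.4 CPM in KO, while Slc14a1 lies between 3.70 and 5.13 CPM in WT and between 16.1 and 23.9 CPM in KO.

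The spread within KO was also different for the genes of the pair. The 3 KO values of Slc14a2 had a coefficient of variation of 7.92%, where counting alone would give 2.90%, and the highest was 1.17 times the lowest. For Slc14a1 the coefficient of variation in KO was 23.9%, against 4.87% from counting, and the highest value was 1.48 times the lowest. In WT, Slc14a1 varied by 17.0% (9.59% from counting). Slc14a2 thus varied less among the KO mice than Slc14a1 did in these libraries, and with 3 mice per genotype no test of that spread was made.

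Levels of different genes were compared per length, as FPKM (CPM per 1000 exon bases, with the union of annotated exons as the length). On this scale Slc14a1 stood at 1.24, 0.926 and 1.28 FPKM in WT and Slc14a2 at 0.0211, 0.0247 and 0.0435 FPKM. In the KO libraries the order was turned: Slc14a2 was at 9.18, 10.7 and 10.3 FPKM and Slc14a1 at 4.05, 4.04 and 5.99 FPKM. Slc14a1 was thus the transporter with the higher level in each of the 3 WT libraries, and Slc14a2 in each of the 3 KO libraries.

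The ratio of Slc14a2 to Slc14a1 per length was 0.0169, 0.0266 and 0.0339 in WT and 2.27, 2.65 and 1.73 in KO (mean 2.22 ± 0.464, SD, n = 3). KO3, which had the highest Slc14a1 level, had the lowest ratio. Using the longest transcript of each gene as its length gave KO ratios of 2.67, 3.12 and 2.03, above 1 in the 3 libraries as well. The transcript that was present is unknown, so the ratio carries the error of the length.

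Urea transporter RNA as a sum of the pair was 1.27, 0.950 and 1.33 FPKM in WT (mean 1.18 ± 0.202, SD, n = 3) and 13.2, 14.8 and 16.3 FPKM in KO (mean 14.8 ± 1.55, SD, n = 3). Slc14a2 made up 1.66%, 2.59% and 3.28% of that sum in WT and 69.4%, 72.6% and 63.3% in KO. Nearly all of the transporter RNA in WT lip was thus Slc14a1, and the larger part of it in KO was Slc14a2.

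Among the tested genes with a known length, 14223 in all, which leaves out genes low in most libraries, the mean WT level of Slc14a2 lay above that of 0.204% of genes and its mean KO level above that of 67.3%; it passed the filter on its KO levels. Slc14a1 lay above 17.5% of genes in WT and above 46.4% in KO. The median level of these genes was 5.21 FPKM in WT and 5.43 FPKM in KO. The mean KO level of Slc14a2 thus lay above the median of these tested genes, and that of Slc14a1 lay below it.

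The name "strongest rise" holds for the order by p-value and not for the order by size. Over the 15009 tested genes, of which 4.38% were called higher in KO and 2.09% lower (adjusted p under 0.05), Slc14a2 held rank 1 by p-value. Gm5335, which followed at rank 2, had a larger fitted log2 difference of 9.11 at a lower level, 0.0121 ± 0.0210 CPM in WT and 10.4 ± 0.906 CPM in KO. By the size of the log2 difference Slc14a2 was at rank 25, between Iqcf5 (8.48, from 0 counts in WT to 1.82 ± 0.561 CPM in KO) and Gm15753 (8.36, from 0.263 ± 0.0490 to 86.9 ± 30.2 CPM). Fitted differences of this size rest on WT counts near 0, which leaves their order uncertain. Slc14a1 held rank 166 by p-value and rank 259 by log2 difference, where Sh2d5 and Gucy1a3, a subunit of soluble guanylate cyclase, were its neighbours at 2.03 and 2.02.

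Genes near 0 in WT and high in KO were counted with a limit set by Slc14a2 itself, its highest WT count of 5. Of 7946 symbols with at most 5 counts in each WT library, 20 had at least 100 counts in every KO library. The size of the set and the place of Slc14a2 in it follow from these limits and from the values that chose the gene. They are a description only. Ordered by the lowest KO count, Slc14a2 (928) was in place 2 after Lrrn4 (lowest KO count 1359; 3, 3 and 4 counts in WT), a leucine-rich repeat membrane protein, and ahead of Apol7b (257). Its neighbour Slc14a1 was not in this set, since its WT counts reached 137.

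**Figure D2:**
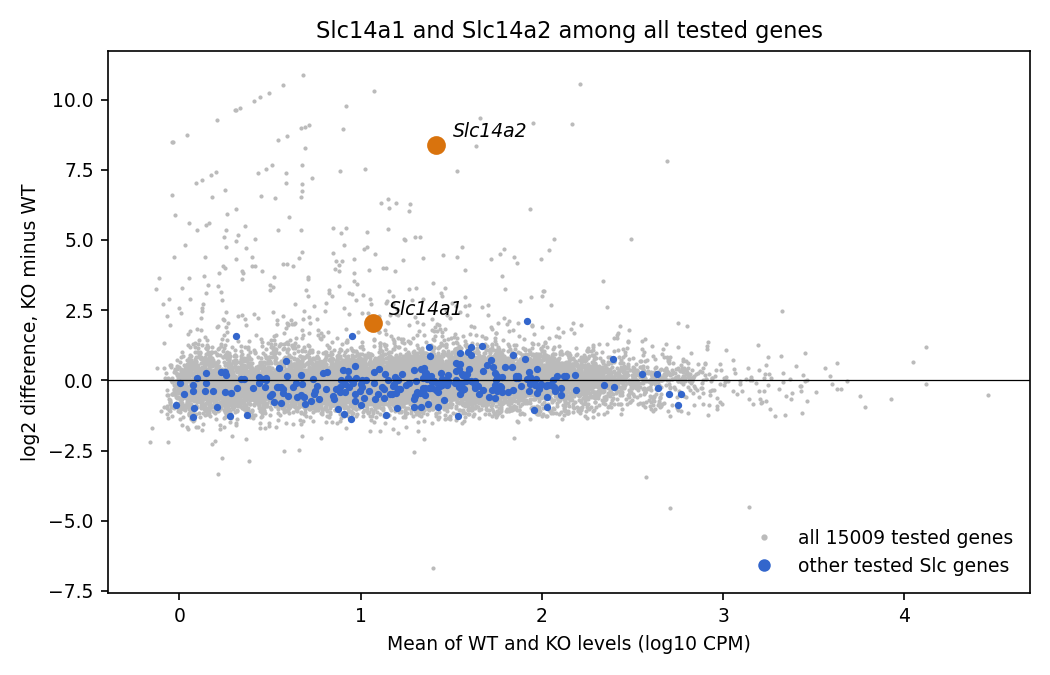
Each grey dot is 1 of the 15009 tested genes, placed by its mean level (log10 CPM) and its fitted log2 difference, KO minus WT; blue dots are the other tested Slc genes and the orange dots are the urea transporters. Slc14a2 at 8.39 stands apart from the rest of the Slc genes, while Slc14a1 at 2.02 has Slc10a6 at 2.12 beside it.

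The solute carrier (Slc) genes as a class had a median slightly below 0. Of the 259 tested Slc genes other than the pair, 7 were called higher in KO (2.70%, against 4.38% of all genes) and 11 lower (4.25%, against 2.09%), and their median log2 difference was -0.16, against -0.02 over all tested genes. Among all 261 tested Slc genes, Slc14a2 and Slc14a1 held ranks 1 and 3 by log2 difference. Slc10a6, a carrier of sulfated steroids, stood between them at 33.2, 34.3 and 25.4 CPM in WT and 158, 154 and 92.5 CPM in KO (log2 difference 2.12, SE 0.23, edgeR's quasi-likelihood test, adjusted p = 0.00152). These 3 were the Slc genes with a log2 difference above 2, and 9 exceeded 1.

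Of 14 tested genes around the pair 1 was called, which cannot be told apart from the 6.47% of all tested genes called in either direction. Of the 10 nearest annotated genes with counts on each side, 14 of 20 were tested, 1 was called higher (4.38% of all genes were) and 0 lower by edgeR's quasi-likelihood test; 1 of the 14 had an unadjusted p under 0.05. The median log2 difference of the 14 was 0.11, with 9 above 0 and 5 below, against a median of -0.02 over all tested genes.

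Siglec15, a sialic acid-binding receptor and the nearest gene below Slc14a1 at 42696 bases, had 0 counts in the 3 WT libraries and 0, 2 and 3 counts in KO1, KO2 and KO3, within the limit of 3 counts. Epg5, an autophagy gene at 65078 bases, was at 49.9, 57.2 and 61.3 CPM in WT and 71.1, 77.2 and 52.2 CPM in KO. Its values overlapped between genotypes (log2 difference 0.25, SE 0.17, edgeR's quasi-likelihood test, adjusted p = 0.358). On the side of the Slc14a2 start, Setbp1, which encodes a SET-binding nuclear protein, lies 153438 bases away and was at 40.4, 54.5 and 48.5 CPM in WT and 45.3, 52.9 and 44.5 CPM in KO, with overlapping values (log2 difference -0.01, SE 0.15, adjusted p = 0.983). The genes that flank the pair were therefore at the limit of counting or without a difference that passed the test.

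The 1 neighbour that was called, Pqlc1, lies 1656350 bases from Slc14a2, and 7 tested genes separate it from the pair. Pqlc1 rose from 60.4, 48.6 and 56.2 CPM in WT to 126, 120 and 119 CPM in KO (log2 difference 1.14, SE 0.13, edgeR's quasi-likelihood test, adjusted p = 0.00184). Without KO3, 2 of these neighbours were called, where 33% of all tested genes were, and Pqlc1 was called in each of the 15 alternatives and left-out libraries tried.

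**Figure D3:**
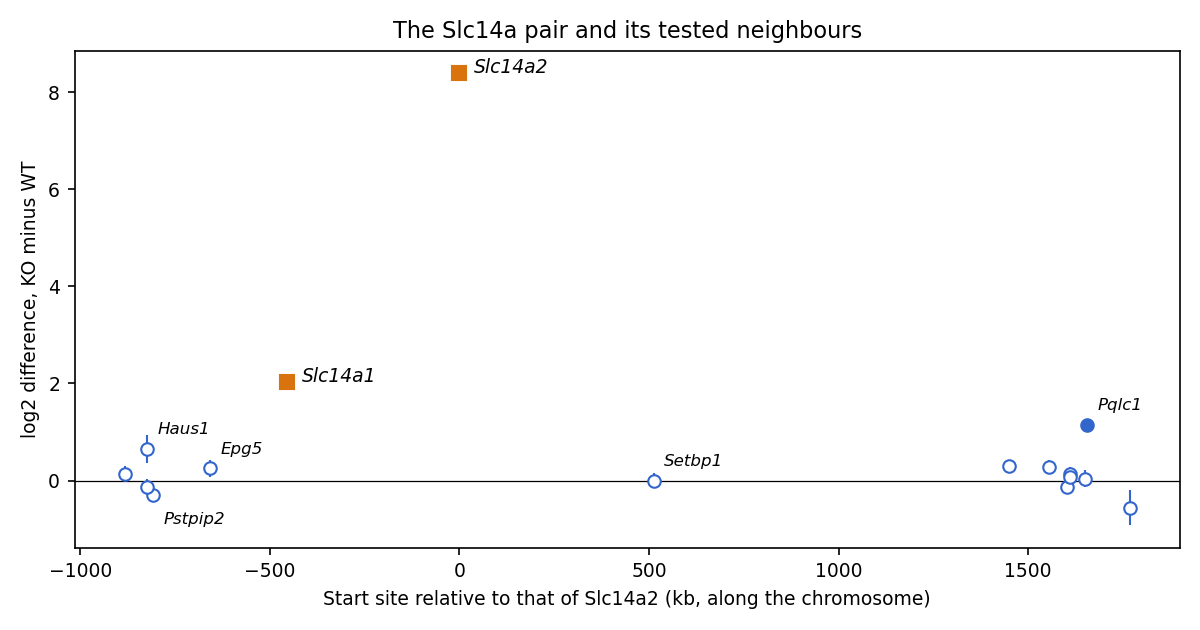
The fitted log2 difference (KO minus WT) of the tested neighbours of the pair is plotted against the distance of each start site from that of Slc14a2 (kilobases); orange squares are the pair, circles are neighbours with bars of ± 1 SE, and a filled circle passed the test. Pqlc1 at 1.14 is the filled circle, Setbp1 at -0.01 and Epg5 at 0.25 flank the pair, and no neighbour comes near the 8.39 of Slc14a2.

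Likeness to the pair was measured as Pearson's r of log2 CPM over the 6 libraries, which share 2 genotype groups, so that any gene that differs steadily between genotypes has a high r; the values are a description. The 5 genes most like Slc14a2 were Prr18 (r = 0.9996), Gm7029 (0.998), C86695 (0.998), Tie1 (0.998) and Gm8674 (0.998), and 62 genes exceeded 0.99. Prr18, which encodes a proline-rich protein, went from 0.404 ± 0.126 to 28.2 ± 0.328 CPM and is on chromosome 17. Tie1, a receptor tyrosine kinase known from endothelium, was the one among the 5 with a clear WT level, 34.4 ± 5.55 CPM, and stood at 401 ± 31.0 CPM in KO. Slc14a1 was at place 188 in this order (r = 0.975).

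For Slc14a1 the 5 most alike were 4933404O12Rik (r = 0.996), Bola1 (0.995), Tfpi2 (0.994), Sh3rf2 (0.994) and Cxcl16 (0.993), and 7 genes exceeded 0.99. Bola1, a mitochondrial protein of the BolA family, had 10.2 ± 1.88 CPM in WT and 28.9 ± 3.42 CPM in KO, and Cxcl16, a chemokine, had 14.2 ± 0.962 and 28.2 ± 4.25 CPM. Slc14a2 was at place 54 in this order. None of the 5 genes was shared by the lists of Slc14a1 and Slc14a2.

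The genes that make urea or compete for its precursor arginine were given as a list of 19, of which 16 were tested. By edgeR's quasi-likelihood test 2 of the 16 were called higher in KO, Arg2 and Slc25a13, and 0 lower, where 4.38% of all genes were higher and 2.09% lower; the median log2 difference was -0.11, against -0.02 over all tested genes. Without KO3, 5 of the 16 were called, where 33% of all tested genes were. By edgeR's exact test 2 were higher, again Arg2 and Slc25a13, and 2 lower, Nos1 and Ddah2. That test called 7.76% of all genes higher and 7.15% lower.

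Arg2, the mitochondrial arginase, which splits arginine into urea and ornithine, had 195, 188 and 161 counts in WT and 573, 886 and 649 counts in KO. The levels were 7.08, 7.99 and 7.24 CPM in WT and 29.3, 29.1 and 29.7 CPM in KO (log2 difference 1.98, SE 0.14, adjusted p = 0.000139, n = 3 per genotype), so the KO values nearly coincided. Arg2 (chr12:79130777-79156301) overlaps Vti1b and Gm48780 on the opposite strand, and the strand setting of the counting is not given in the sources used here.

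Arg1, the cytosolic arginase of the urea cycle, had overlapping values, with 32.6, 22.2 and 19.2 CPM in WT and 62.5, 32.2 and 18.4 CPM in KO; KO3 lay below all WT libraries and the difference did not pass the test (log2 difference 0.61, SE 0.41, adjusted p = 0.344). Slc25a13, the mitochondrial aspartate-glutamate carrier that supplies aspartate to the urea cycle, rose from 25.9 ± 1.57 to 52.0 ± 3.999 CPM (SD, n = 3 per genotype; log2 difference 1.003, SE 0.13, adjusted p = 0.00345). The other urea cycle enzymes that were tested did not pass: the log2 difference was 0.10 for Ass1, -0.17 for Asl and -0.29 for Cps1. The genes that use arginine for nitric oxide, or guard that use, included the nitric oxide synthases Nos1 (log2 difference -1.19, adjusted p = 0.107) and Nos2 (-1.01, adjusted p = 0.0935) and the dimethylarginine hydrolase Ddah2 (-0.61, adjusted p = 0.0784). None of these passed the quasi-likelihood test. Their values lay lower in KO without overlap, but 31.5% of all tested genes had no overlap between genotypes. Odc1, ornithine decarboxylase, had the highest level of the list, 109 ± 5.41 CPM in WT and 106 ± 16.6 CPM in KO (log2 difference -0.04).

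Channels and osmolyte genes that accompany urea handling formed a list of 13, of which 12 were tested. Here 2 were called higher, Aqp9 and Hspa1b, and 0 lower, where 4.38% of all genes were higher and 2.09% lower, with a median log2 difference of 0.12; without KO3, 6 were called, where 33% of all tested genes were. Aqp9 (chr9:71110659-71168682), an aquaglyceroporin that passes glycerol and urea, had 22.0, 21.3 and 23.1 CPM in WT and 199, 189 and 144 CPM in KO (log2 difference 3.00, SE 0.16, edgeR's quasi-likelihood test, adjusted p = 3.61e-05). All KO libraries stood far above WT, with KO3 the lowest of them. Aqp9 overlaps Gm32511 and Gm47268 on the opposite strand.

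Aqp3, the main aquaglyceroporin of the epidermis, had 535, 421 and 474 CPM in WT and 750, 541 and 775 CPM in KO. Its values did not overlap between genotypes, as for 31.5% of all tested genes, and the difference did not pass the test (log2 difference 0.53, SE 0.18, adjusted p = 0.107). Aqp7, at 3.30 ± 1.17 and 1.86 ± 0.804 CPM, lay lower in KO without passing the test (log2 difference -0.83, adjusted p = 0.183). Hspa1b, a heat shock protein that hypertonic stress induces, had 130 ± 18.9 and 368 ± 58.6 CPM (log2 difference 1.502, SE 0.18, adjusted p = 0.00208); reads that match its near-identical copy Hspa1a as well may have been split or left out in the counting, so its count is uncertain. Nfat5, the tonicity-responsive transcription factor, was at 167, 169 and 160 CPM in WT and 227, 255 and 123 CPM in KO, with KO3 below the WT libraries (log2 difference 0.28, adjusted p = 0.462). Slc6a6, the taurine transporter, had the highest WT level of the list, 588 ± 88.7 CPM, and 415 ± 31.2 CPM in KO (log2 difference -0.50, adjusted p = 0.0901).

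The genes through which vasopressin acts on UT-A in kidney, with regulators of the UT-A proteins, made a list of 12, of which 10 were tested. By edgeR's quasi-likelihood test 0 were called, where 6.47% of all genes were in either direction, while 3 had an unadjusted p under 0.05. Many of all tested genes reached that limit too. EdgeR's exact test and DESeq2 each called 1, where they called 14.9% and 14.2% of all genes. The median log2 difference was -0.25, against -0.02 over all tested genes, and without KO3 the list had 4 calls, 1 higher and 3 lower, where 33% of all tested genes were called. Adcy6, the adenylyl cyclase of the vasopressin response, had 60.9 ± 4.81 and 45.6 ± 2.96 CPM (log2 difference -0.42, adjusted p = 0.0868), and Prkaca, the catalytic subunit of protein kinase A and the highest gene of the list, had 109 ± 22.5 and 75.9 ± 21.6 CPM (log2 difference -0.53, adjusted p = 0.174).

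Markers of kidney tubule were looked at because Slc14a2 is best known from there. Of 20 markers 17 were matched and 2 passed the filter on low counts, while the sum of the list was 11.8 to 12.0 CPM in WT and 7.04 to 8.25 CPM in KO. Slc12a1, the cotransporter of the thick ascending limb, had 0, 0 and 1 counts in WT and 0, 0 and 0 counts in KO. Aqp2, the water channel of the collecting duct, had 0, 0 and 2 counts in WT and 4, 4 and 2 counts in KO, and Avpr2, the vasopressin receptor of the collecting duct, had 2, 1 and 3 counts in WT and 2, 4 and 4 in KO. These 3 genes were at or near the limit of 3 counts in the same libraries in which Slc14a2 reached 928 counts and more. Other markers of the list had more reads, with 11 to 27 counts a library for Lrp2 and 24 to 45 counts for Cubn, endocytic receptors of the proximal tubule.

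Most of the summed tubule level came from Atp6v1b1, a proton pump subunit of intercalated cells, which fell from 7.55, 7.95 and 8.10 CPM in WT to 3.89, 4.70 and 4.30 CPM in KO (log2 difference -0.87, SE 0.17, edgeR's quasi-likelihood test, adjusted p = 0.0251). That was the 1 call of the list (2.09% of all genes were lower), and it was lost without WT1, WT2, WT3, KO1 or KO2. In those settings 0.122% to 0.419% of all tested genes were called lower.

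Markers of the red cell lineage and of endothelium were set beside Slc14a1, the transporter best known from those cells. The summed erythroid markers, 8 of 10 of which were matched, reached 56.8 to 158 CPM in WT and 37.1 to 104 CPM in KO, ranges that overlap. Of 6 tested, 0 were higher and 1, Slc4a1, the anion exchanger of red cells, was lower, where 2.09% of all genes were (10.04 ± 1.64 against 4.95 ± 0.831 CPM, log2 difference -1.02, SE 0.21, adjusted p = 0.0282), and the median was -0.69. The 6 tested red cell markers had log2 differences below 0, of which 1 passed the test. The part of red cells in the level of Slc14a1 was not tested.

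The 6 endothelial markers summed to 154 to 196 CPM in WT and 115 to 184 CPM in KO. Of these 6, 0 were called and 2 had an unadjusted p under 0.05, a limit that many of all tested genes reached. Their median log2 difference was -0.22. Tie1, named above among the genes most like Slc14a2, is not in that list.

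Epidermal barrier genes had the most calls among the lists linked to urea transport. Of 12 genes 11 were tested and 3 were called higher, against 4.38% of all genes, and 0 lower; 8 of the 11 lay above 0, and the median log2 difference was 0.64, against -0.02 over all tested genes. Abca12, the lipid transporter of lamellar granules, had 105, 125 and 175 CPM in WT and 677, 466 and 262 CPM in KO (log2 difference 1.79, SE 0.34, edgeR's quasi-likelihood test, adjusted p = 0.0231). Ivl, the cornified envelope protein involucrin, had 37.6, 69.7 and 82.4 CPM in WT and 191, 232 and 130 CPM in KO (log2 difference 1.55, SE 0.31, adjusted p = 0.0292), and Casp14, the caspase of cornification, had a log2 difference of 1.08 (SE 0.26, adjusted p = 0.0471). For these genes KO1 or KO2 was the highest library and KO3 the lowest in KO, an order of 3 values that was not tested.

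Krt10, a keratin of the differentiated layers, had the highest WT level of the list, 8715 ± 968 CPM, and 13574 ± 2544 CPM in KO (log2 difference 0.64, adjusted p = 0.163), and its partner Krt1 had 8019 ± 1307 and 18218 ± 4113 CPM (log2 difference 1.18, adjusted p = 0.0584). The calls of this list varied with the library left out: 0 were made without WT1, WT2, WT3 or KO2, 1 without KO1 and 7 without KO3. Over all tested genes, 2.32%, 3.64%, 2.44% and 1.53% were called without WT1, WT2, WT3 and KO2. The share was 2.17% without KO1 and 33% without KO3, against 6.47% with all libraries. The share of epidermis in the tissue was not measured, and its part in the levels of the urea transporters was not tested.

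**Figure D4:**
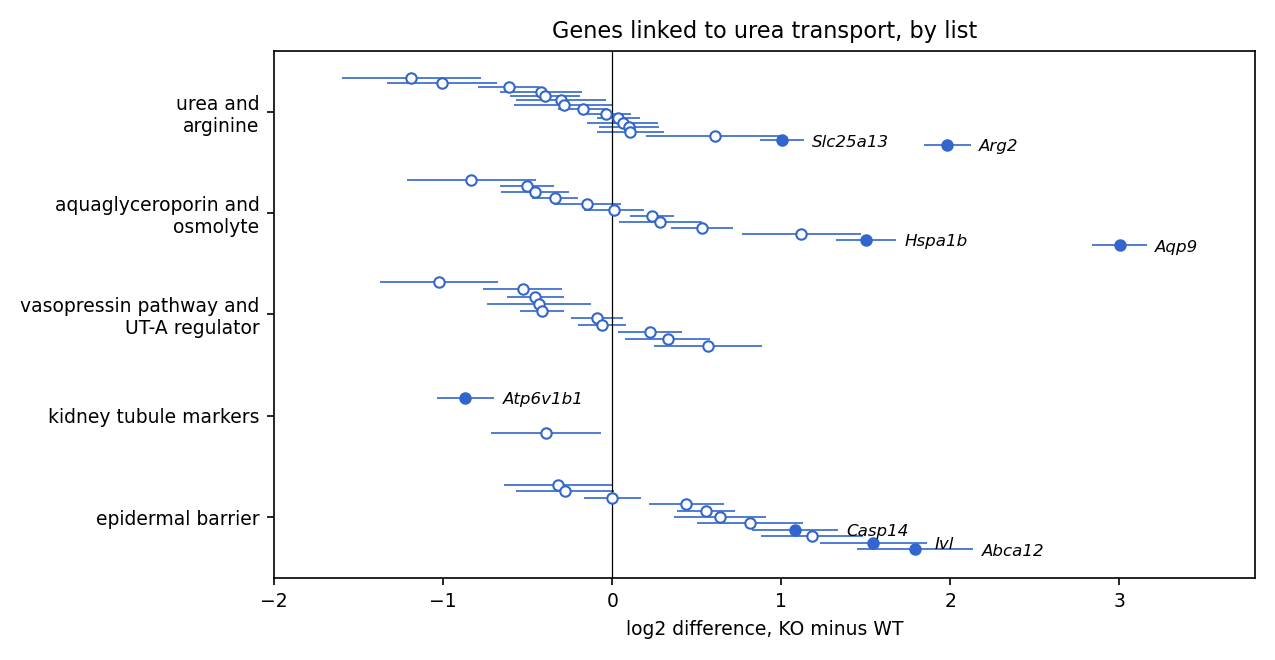
Each circle is the fitted log2 difference (KO minus WT) of 1 tested gene from the 5 lists linked to urea transport, with bars of ± 1 SE; filled circles passed edgeR's quasi-likelihood test at an adjusted p under 0.05 and are named. Aqp9 at 3.00 and Arg2 at 1.98 lie farthest to the right, Atp6v1b1 at -0.87 is the filled circle below 0, and the vasopressin list has no filled circle.

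The remaining marker lists are given beside the pair, and their calls are read against 4.38% of all genes higher and 2.09% lower. Their counts at an unadjusted p under 0.05 are not read as a result, since many of all tested genes reached that limit. Basal keratinocyte markers summed to 10628 to 11559 CPM in WT and 10021 to 11858 CPM in KO, with 0 of 6 called and a median log2 difference of 0.03. Skeletal muscle markers summed to 10304 to 13241 CPM in WT and 5000 to 7799 CPM in KO without overlap, with 1 of 6 lower (Tnnt3, 1233 ± 129 against 614 ± 175 CPM, adjusted p = 0.0397) and a median of -1.05. Hair follicle markers, at 3604 to 4451 CPM in WT and 2117 to 2996 CPM in KO, also did not overlap (0 of 5 called, 5 at an unadjusted p under 0.05, median -0.68).

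Schwann cell and glia markers summed to 487 to 509 CPM in WT and 245 to 431 CPM in KO (0 of 6 called, 3 at an unadjusted p under 0.05, median -0.53), while fibroblast markers summed to 4585 to 5880 and 2004 to 4634 CPM (0 of 6 called, 1 at an unadjusted p under 0.05, median -0.53). Of the other lists, adipocyte markers had 1 of 6 lower (Fabp4, 64.3 ± 3.41 against 41.0 ± 4.23 CPM, adjusted p = 0.0303; median -0.75), and macrophage, melanocyte and T cell markers had 0 called, with medians of -0.11, -0.37 and 0.42. No marker list had a member called higher in KO. The summed levels of skeletal muscle, hair follicle, Schwann cell and adipocyte markers (adipocyte 105 to 135 CPM in WT, 84.5 to 93.0 in KO) did not overlap between genotypes. The epidermal barrier sum (18084.5 to 23003 CPM in WT, 29383 to 45008 in KO) and the aquaglyceroporin and osmolyte sum (1921 to 2156, 2523 to 2668) lay higher in KO without overlap. The vasopressin list (360 to 394, 310 to 327) and the kidney tubule list lay lower without overlap. Of single genes, 31.5% did not overlap. The sums were not tested, and their part in the levels of the urea transporters was not tested.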

How the data were processed

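RNA-Seq was performed on top lip of 3 WT and 3 KO mice, 1 library per mouse. According to the methods and labels, the authors aligned the read pairs with TopHat2 2.0.8 and Bowtie2 2.1.0 (build GRCm38) and counted them per annotated gene with HTSeq. The deposited values are raw counts per gene symbol without normalization, and strand and counting mode are not given in the sources used here.

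Genes that reached 1 CPM in 3 or more libraries were tested, which held 99.8% of counts. Libraries were scaled by TMM, and genotypes were compared with edgeR 4.0.16 (R 4.3.3; limma 3.58.1; glmQLFit with legacy=FALSE, glmQLFTest), with Benjamini-Hochberg adjustment over all tested genes and a threshold of 0.05. Group values are mean ± SD, and fitted log2 differences used a prior count of 0.125. SE is the absolute fitted log2 difference divided by the square root of the F statistic of the quasi-likelihood test. For likeness, log2 CPM used a prior count of 2. Intervals of pooled ratios are exact binomial ones at 95%. In simulated data, 86.5% of 200 changed genes were called, and 6.486% of calls were false. The simulation gave each gene the spread typical of its level and held no deviating library such as KO3. These rates therefore may not hold for the real libraries. Positions, exon lengths and overlaps came from the GENCODE M21 annotation, whose version may differ from the one the authors counted with; 24804 symbols matched 1 gene each. RefSeq promoter windows held no entry for Slc14a1 and Slc14a2.

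The members, gene lists and marker lists were chosen with earlier results of these data known. Genes named are the pair, list members that passed the test, had the highest level or carry the list's function, neighbours that passed or flank the pair, the 5 genes most alike, and genes next in rank. Alternatives were edgeR's exact test as used in the study, DESeq2 1.42.0, the older quasi-likelihood fit, DESeq2 size factors, library size, upper quartile, 2 other filters, 2 other prior counts, a replicate block and each library left out. Figures were drawn with matplotlib 3.10.9.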

Additional observations from a re-analysis of the deposited data

How the results depend on the processing

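Slc14a1 and Slc14a2 kept their direction under every alternative in which they were tested. The pair was chosen on this same contrast, so the kept direction is a description and no support for the difference. The fitted log2 difference of Slc14a2 was 8.39, against 7.80 with a prior count of 2, and 8.17 to 8.73 with a library left out (highest without WT3); Slc14a1 gave 1.81 to 2.18. Slc14a2 was not tested under the filter of 10 counts in every library, nor at 3 libraries when a KO library was left out, so a filter of 1 CPM in 2 libraries was added after seeing the data.

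Genes called higher numbered 657, against 1165 with the exact test, 1511 with DESeq2 and 208 to 2496 with a library left out. Genes called lower numbered 314, against 1073, 898, 207 with DESeq2 size factors, 204 without a filter, 204 at 10 counts in every library, and 18 to 2395. The lists gave, with a library left out, 2 to 5 calls for urea and arginine (exact test 4), 2 to 6 for aquaglyceroporins and osmolytes (DESeq2 4), 0 to 4 for the vasopressin pathway (exact test 1, DESeq2 1), 0 to 1 for kidney tubule, 0 to 7 for the epidermal barrier (exact test 6, DESeq2 7) and 1 to 2 for the neighbours. Over all tested genes, 14.9% were called by the exact test, 14.2% by DESeq2 and 1.53% to 33% with a library left out. The quasi-likelihood test on all libraries called 6.47%. Of the other named genes, Arg2, Slc25a13, Aqp9, Hspa1b, Pqlc1 and Gtf2ird1 kept their call throughout, while Atp6v1b1, Ivl and Abca12 lost it under 5 of 15 alternatives each and Casp14 under 7. The cause of these shifts was not tested.

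Deviations from the group means, correlated over genes between same-numbered WT and KO libraries, gave -0.19, 0.29 and 0.31. Libraries with different numbers gave -0.50 to 0.41. The labels state no pairing, and deviations from means of 3 libraries cannot decide whether the numbers pair the mice. With a replicate block, 580 genes were higher and 217 lower, Slc14a2 stood at 8.38 and Slc14a1 at 2.01, and Abca12 lost its call. The WT level of Slc14a2 is limited by depth, at 3 to 5 counts per library.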
